A study of Mus musculus with 21 samples.

Results

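The response of mouse aortic smooth muscle cells to tumour necrosis factor (TNF) after 6 h was read from 1 pair of Affymetrix arrays, the TNF array and the PBS control array of that time. Every gene whose brighter array of the pair lay above the median signal of that array was taken, which left 11640 of the 18193 genes that have a probe set with 1 gene symbol. A gene was read from its probe set with the highest mean signal over all 21 arrays. Its difference is log2(signal + 10.2) on the TNF array minus the same quantity on the control array, so a difference of 1 stands for a 2-fold higher value on that scale, and the added 10.2 makes folds of dim genes smaller. With 1 array a group there is no error and no test at 6 h. A gene was called higher or lower at a difference of at least 2-fold, and its other probe sets, the other control arrays and the other times are given beside it.

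Aortas of male C57BL/6J mice aged 10 to 12 weeks gave the cells, which were kept in DMEM/F12 with 10% FCS and were fed 24 h before stimulation. The control group received PBS alone, the TNF group 1 ng/ml TNF alpha in PBS, and another group 10 µg/ml of an antibody to the lymphotoxin beta receptor (LTBR), another receptor of the TNF receptor superfamily. At 2 h and 6 h each of these groups has 1 array, all numbered 0 in the labels. At 24 h each has 4 arrays numbered 0 to 3, and TNF with the antibody has 3 arrays numbered 1 to 3. The labels do not say whether the numbers stand for separate cultures or animals, so spread and p-values at 24 h measure only the spread between these samples.

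TNF binds TNFR1 (Tnfrsf1a), which gathers the adaptor TRADD, TRAF proteins and the ubiquitin ligases cIAP1 and cIAP2, and this complex activates the IKK kinases. IKK marks the IkB proteins for destruction and so frees NF-kB dimers, which switch on chemokine, cytokine and adhesion genes and also their own inhibitors. In many cells a second wave follows in which interferon regulatory factors and STAT proteins act on interferon-stimulated genes through a sequence called ISRE, and smooth muscle cells of the vessel wall are known to make chemokines and VCAM1 when exposed to TNF.

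All 9 arrays numbered 0, among them both arrays at 6 h, stood apart from the others by their endothelial markers. The summed signal of the 23 markers was 32085 on the control array and 30179 on the TNF array at 6 h, 29640 to 35370 on all arrays numbered 0, and 6547 to 12095 on the 12 arrays numbered 1 to 3. For 15 of the 23 markers the lowest array numbered 0 was above the highest of the rest. Pecam1, a junction protein of endothelium, read 4734 on the control array and 4148 on the TNF array at 6 h against 40.3 to 375.5 on the arrays numbered 1 to 3. Emcn read 8715 and 7674 against 160.4 to 1085, and Vwf 971 and 777 against 3.8 to 148.6. The smooth muscle genes were there too: Acta2, smooth muscle actin, read 17593 on the control array and 17061 on the TNF array, within 16442 to 19662 on the arrays numbered 1 to 3. Myh11, the myosin heavy chain of contractile smooth muscle, read 193 and 169 at 6 h against 529 to 3338 there. Of the leukocyte and fat markers, Ptprc read 31.0 and 45.7, Cd3e 25.9 and 67.4 and Adipoq 39.9 and 32.2, all below the filter, while 6 of 15 macrophage markers, 1 of 11 lymphocyte markers and 2 of 6 adipocyte markers passed it. Among those, Csf1r read 467.5 and 618.6, Lyz2 203.9 and 246.9, Cd8a 266.3 and 351.8 and Fabp4 847.7 and 951.8. No marker of leukocytes, fat or adventitial fibroblasts that passed the filter was past 2-fold on its chosen probe set. Another passing probe set of Cd8a went the other way, from 142.4 on the control array to 63.4 on the TNF array (-1.05). Within the pair the 19 endothelial markers above the filter lay between -0.82 and 0.39, and 6 of them were higher on the TNF array. The summed signal of the macrophage markers was 1623 on the control array and 1982 on the TNF array, that of the lymphocyte markers 506 and 771, and that of the smooth muscle defining markers 50244 and 42716. On all arrays numbered 0 these 3 sums ran from 1591 to 1984, from 506 to 860 and from 42716 to 50411. The part of these cell types in the results was not tested. In such bulk samples fewer cells of a type and less RNA per cell cannot be told apart.

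**Figure D1:**
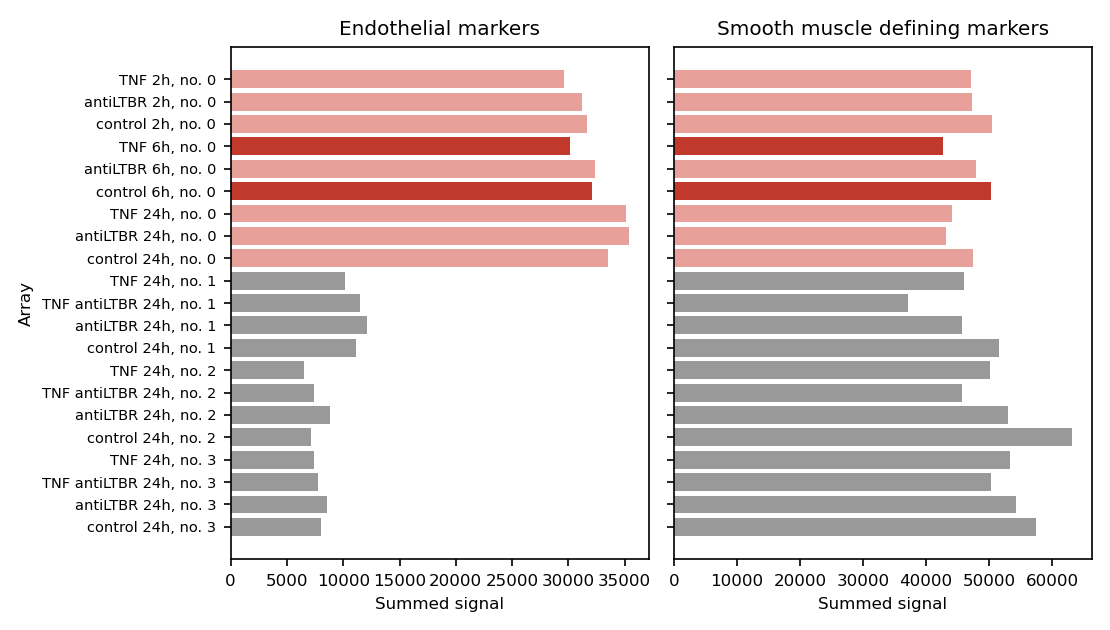
Summed signal of the endothelial markers (left) and the smooth muscle defining markers (right), 1 bar for each of the 21 arrays, with the 2 arrays at 6 h in dark red, the other arrays numbered 0 in light red and the arrays numbered 1 to 3 in grey. The endothelial sum is at least 29640 on every array numbered 0 and at most 12095 on every other array, while the smooth muscle sums of both sets overlap.

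At 6 h 252 genes were at least 2-fold higher with TNF and 64 at least 2-fold lower, 2.16 and 0.55 percent of the 11640. The higher genes held 37 past 4-fold and 6 past 8-fold, which were Ccl7, Ccl5, Ccl2, Gbp6, Cxcl10 and Gbp2: 4 chemokines and 2 interferon-inducible GTPases. The lower genes held 8 past 4-fold and Rtel1 alone past 8-fold. Most genes hardly differed: 88.2 percent lay within 0.5 either way, the median difference was 0.00, and the 5th and 95th percentiles were -0.45 and 0.65. The median signal was 111.4 on the control array and 122.1 on the TNF array, while their trimmed means were equal. Scaling to equal medians moved the median difference of all genes to -0.13 and gave 193 genes higher and 95 lower, so that 67.0 percent of the genes past 2-fold were higher in place of 79.7 percent. Differences between 0 and 0.13 therefore change sign with the scaling.

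**Figure D2:**
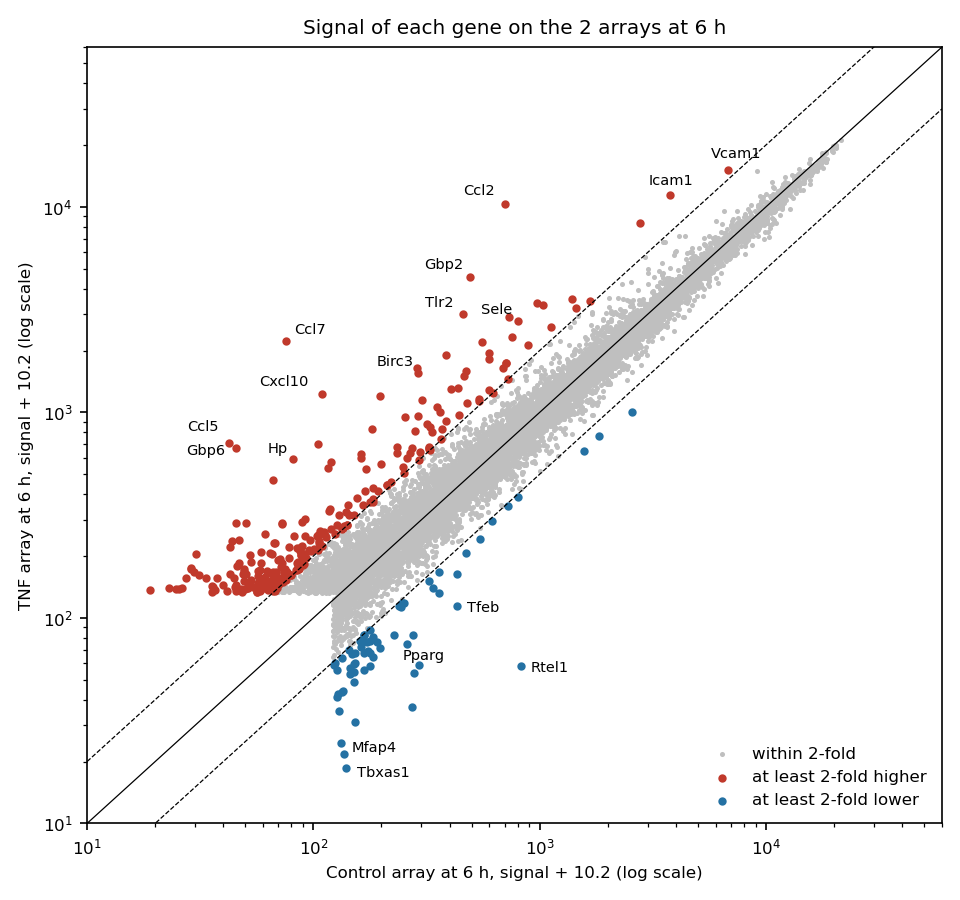
Signal plus 10.2 of each of the 11640 genes on the control array (x axis) and on the TNF array (y axis) at 6 h, both on log scales, with lines at equality (solid) and at 2-fold (dashed). The 252 red points are at least 2-fold higher with TNF and the 64 blue points at least 2-fold lower, and the labelled red points include Ccl7 (4.88), Ccl2 (3.89) and Gbp2 (3.21).

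Genes past 2-fold were also set against the other control arrays, bright and dim ones apart. The split was made on the mean signal over all 21 arrays, TNF arrays included, at the 75th percentile of all probe sets (515.7). By it 52 of the 252 higher genes were bright and 200 dim. On the TNF array 48 of the 52 bright genes read above all 6 control arrays of the series, and 100 of the 200 dim ones. For 127 of the 252 the control array at 6 h was the lowest of the 6 controls, 9 of them bright and 118 dim, against 18.0 percent of all genes. Over all 252 the TNF array lay above all 6 controls for 148, where 14.7 percent of the 11640 genes did, and it lay below all 6 for 41 of the 64 lower genes, where 17.7 percent did. Since the control at 6 h is 1 of the 6 and was used to choose these genes, nothing is read from those shares. Control arrays also differed among themselves: the control at 2 h was at least 2-fold above that at 6 h for 72 genes and below it for 51, and the control at 24 h numbered 0 for 201 and 82. With the control at 2 h in place of that at 6 h, 126 of the 252 and 33 of the 64 were still past 2-fold the same way. Just above the filter lay Ptpn5 (111.5 on the control array, 54.1 on the TNF array), Lpin3 and F13a1, and just below it Grhl1 (89.9 and 122.1), Slc39a5 and B630019K06Rik. Just past 2-fold lay Gm20559 (1.001) and Hivep1 (1.002), and just short of it Appbp2os (0.997) and Ninl (0.994). On the lower side these were Maneal (-1.02) and Pole (-1.024) against Cenpi (-0.996) and Klhl29 (-0.993).

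Among the 20 highest genes 6 were dim ones of no listed group. Cfap221 read 8.8 on the control array and 127 on the TNF array, and the other controls reached 134. Syt8 read 12.7 on the control array and 130.0 on the TNF array with controls up to 197, and Slc2a4, the insulin-regulated glucose carrier, 17.2 on the control array and 146 on the TNF array with controls up to 291. In these 3, the TNF value lies within the control range, although the differences at 6 h are 2.85, 2.61 and 2.51. Camk2a, a calcium-dependent kinase, read 18.7 on the control array and 164 on the TNF array with controls up to 218, and Necab3 18.7 on the control array and 164 on the TNF array with controls up to 144. Chst15, which adds sulfate to chondroitin chains, lay furthest above the controls of these 6. It read 20.2 on the control array and 195 on the TNF array with controls of 19.8 to 60.2. Its difference was 2.75 at 6 h, 3.72 at 2 h and 1.20, 2.36, 2.62 and 0.22 at 24 h (limma, adjusted p = 1, and 0.0252 with the block).

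Other passing probe sets of the same gene mostly had the sign of the higher genes and mostly not that of the lower ones. Of the 252 higher genes 49 had another probe set past the filter, and in 39 of them (79.6 percent) all of these had the same sign, against 49.0 percent of the 5360 such genes in all. At least 50 percent of the difference was reached on every other probe set in 27 of the 49 (55.1 percent), against 36.4 percent of all. A dim probe set passes if it rises past the median, as in Cx3cl1 (7.4 on the control array, 168.0 on the TNF array). A probe set that stays dim is left out, as in Birc3 (-1.0) and Slc2a4 (-1.3). Of all 11640 genes 88.2 percent lay within 0.5 either way, where a sign means little. For both reasons nothing is read from the distance between these shares. Among the 64 lower genes 5 had another passing probe set, and in 1 of these, Slc6a6, these had the same sign. Gbp2 gave 3.21 on the chosen probe set and 3.13 on the other, Gbp6 3.87 and 2.59, Tnfaip3 2.0 and 2.27, and Cmpk2 2.67 and 3.27. Necab3 (2.59 against -0.50), Gm3764 (1.81 against -0.45), Sema3f (1.36 against -0.54 and -0.19), Jakmip1 (1.25 against -0.28) and Ccl25 (1.20 against -0.46) disagreed in sign. For Nfkbia and Vcam1 the chosen probe set, the brightest, gave the smallest difference. Nfkbia read 9122 on the control array and 14888 on the TNF array there, a difference of 0.71, and its 4 other probe sets gave 1.43 to 1.76. Vcam1 gave 1.16 on the chosen probe set and 2.01 and 2.02 on the others.

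**Figure D3:**
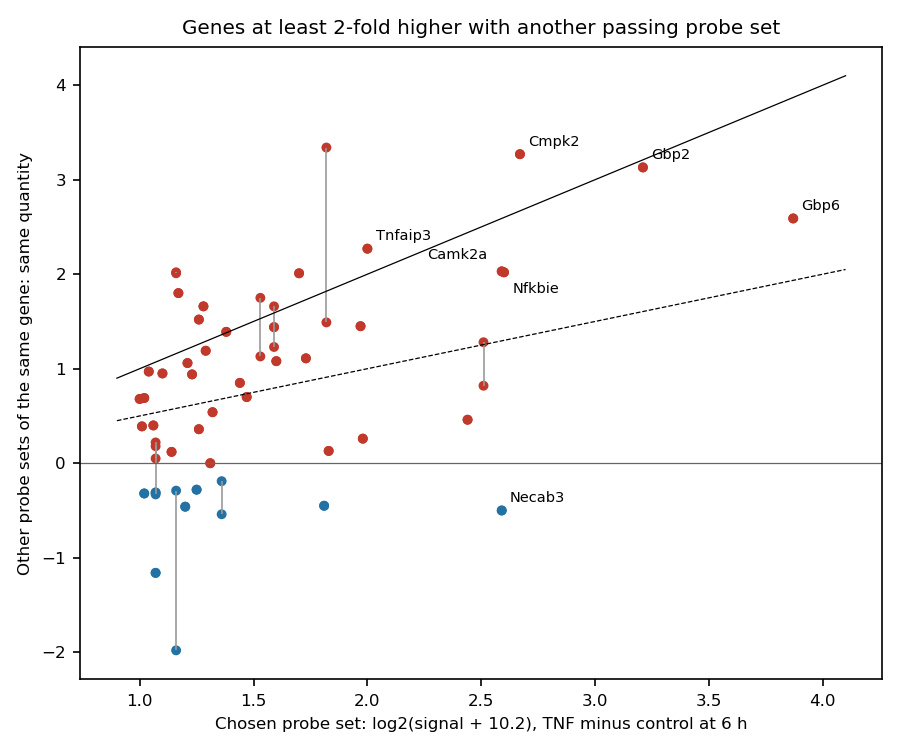
Difference at 6 h (log2 scale) on the chosen probe set (x axis) and on the other passing probe sets (y axis; lowest and highest, joined by a line) of the 49 genes at least 2-fold higher that have one. The solid line marks equal differences and the dashed line 50 percent of the x value, red points are at or above 0 and blue points below it, and 39 genes have every other probe set above 0.

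At the other times, whose arrays are not those of the 6 h pair, some of the higher genes were higher as well. At 2 h 182 genes were at least 2-fold higher and 74 lower, 1.56 and 0.633 percent of 11699. The sets at 2 h and 6 h shared 65 higher genes, 25.8 percent of the set at 6 h and 35.7 percent of the set at 2 h, and 3 lower genes. The median difference of the 252 genes was 1.33 at 6 h, where it was chosen, 0.47 at 2 h and 0.18 over the 4 pairs at 24 h. At 24 h limma called 42 genes higher with TNF (0.338 percent of 12432) and 0 lower (0.0 percent), with 354 higher and 232 lower at an unadjusted p under 0.05. When a block was added, a term for the replicate number that arrays share, it called 382 higher (3.07 percent) and 363 lower (2.92 percent). Of the 252 genes 223 were tested there, and 25 were called higher, or 75 with the block. Without the TNF array numbered 1 the 42 became 21 and the 25 became 13, without the control array numbered 2 they became 25 and 15, and without the TNF array numbered 2 the 42 became 26. With the arrays numbered 1 to 3 alone, a fit chosen after seeing the data, 60 genes were called higher, among them 31 of the 252. Among the 52 bright genes 16 were called higher at 24 h and 46 with the block, and among the 171 dim genes tested 9 and 29. The arrays at 24 h enter the mean that makes a gene bright, so nothing is read from this contrast. Of the 64 lower genes 50 were tested and 0 were called lower by limma (2 at an unadjusted p under 0.05). With the block these were 4, namely Slc6a6, Sost, Epb41l4b and Prdm16os, named after their values were seen.

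Of the 182 genes higher at 2 h 117 were not among the 252. The 5 with the largest differences at 2 h were Ccl20, described below, 4933406F09Rik, a gene of unknown role, Ccdc92b (2.42 at 2 h and 1.61, below the filter at 6 h), Slc34a3 (2.15 and 0.63) and Il15ra, the alpha chain of the IL-15 receptor. Il15ra read 101 on the control array and 555 on the TNF array at 2 h (2.35) and 199 and 287 at 6 h (0.51). Of the 252 genes 187 were not past 2-fold at 2 h, and the largest at 6 h among these were Hp, Cfap221, Psmb9, Cmpk2 and Syt8.

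**Figure D4:**
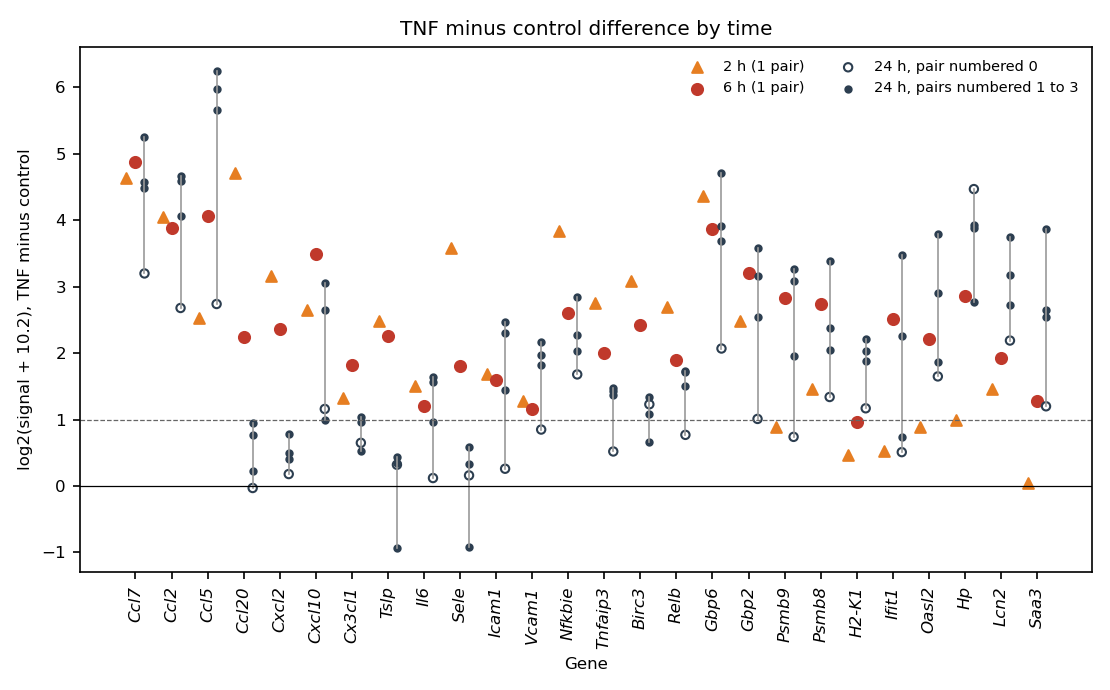
TNF minus control difference of log2(signal + 10.2) for 26 genes at 2 h (orange triangles, 1 pair of arrays), 6 h (red circles, 1 pair) and 24 h (dark points, 4 pairs, with the pair numbered 0 as an open circle and a grey line over the range). Ccl20, Cxcl2, Tslp and Sele stay under 1 in every pair at 24 h, while Hp, Lcn2 and Saa3 are above their value at 2 h in every pair there, and the pair numbered 0 is the lowest of the 4 for most genes.

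In the receptor complex the 2 cIAP ubiquitin ligases were past 2-fold, and the receptors and adaptors were not. Of 21 listed genes of the TNF receptor complex 20 were measured and 20 passed the filter. Of these 2 were past 2-fold higher (2.16 percent of all genes were) and 0 lower, with a median of 0.14. Tnfrsf1a, the receptor TNFR1, read 2709 on the control array and 2418 on the TNF array, and Tnfrsf1b, the receptor TNFR2, 260.4 on the control array and 376 on the TNF array. The difference was -0.16 for the first and 0.51 for the second, both short of 2-fold. The adaptors Tradd (-0.27), Fadd (0.31), Traf2 (0.32), Traf5 (-0.28) and Traf1 (0.62) and the linear ubiquitin ligase subunits Rnf31 (0.49), Rbck1 (-0.26) and Sharpin (0.03) were short of it too. So were the kinase Map3k7, also called TAK1 (0.13), its partners Tab1 (-0.13), Tab2 (-0.20) and Tab3 (-0.23), the deubiquitinase Cyld (0.15), the death regulators Casp8 (0.22) and Cflar (0.27), and Adam17, the protease that sheds TNF (-0.01). Birc3, which encodes cIAP2, read 280.4 on the control array and 1549.9 on the TNF array and 280.4 to 431 on all 6 control arrays. It was 5.4-fold higher (2.42), 3.08 at 2 h and 1.23, 1.08, 1.34 and 0.67 in the 4 pairs at 24 h (limma, adjusted p = 0.035). Birc2, which encodes cIAP1, read 1112 on the control array and 2588 on the TNF array, a difference of 1.21, and 4 pairs at 24 h gave 0.47, 0.66, 0.89 and 0.24 (limma, adjusted p = 0.507, and 0.0046 with the block). Both ligases read above every control array at 6 h, and their differences at 24 h were smaller in every pair.

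Among the NF-kB subunits that passed the filter, those of the non-canonical dimer were past 2-fold. Of 13 listed subunits and kinases 10 were measured and 8 passed, with 2 higher (2.16 percent of all genes were), 0 lower and a median of 0.32. Relb read 243 on the control array and 935 on the TNF array, and Nfkb2, which encodes the p100 precursor of p52, 280.4 on the control array and 954 on the TNF array. Relb was 3.7-fold higher (1.90) and Nfkb2 3.3-fold (1.73), and on both genes the 6 control arrays ended at the value of the 6 h control (243 and 280.4), below the TNF array. At 24 h the differences were 0.77, 1.73, 1.71 and 1.51 for Relb (limma, adjusted p = 0.00175) and 1.09, 1.73, 1.11 and 2.05 for Nfkb2 (limma, adjusted p = 0.0135). The canonical subunit Rela read 2466 on the control array and 3476 on the TNF array (0.49). The kinases Ikbkb (0.14; other passing probe sets 0.11 and 2.39), Ikbkg, which is the adaptor NEMO (-0.05), Tbk1 (0.10), Map3k14, which is NIK (0.49), and Ikbke (-0.67) were within 2-fold on the chosen probe set. Ikbke had larger differences later, with 0.56, 1.83, 2.13 and 1.58 at 24 h (limma, adjusted p = 0.57, and 0.00746 with the block). Rel (36.5 on the control array and 81.9 on the TNF array, 0.98) and Map3k8 (0.42) did not pass the filter. Nfkb1, Chuk and Traf3 were not among the 10 measured, so Rela was the only canonical subunit read above the filter.

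Of 14 listed inhibitors of NF-kB 13 were measured and 12 passed, with 5 at least 2-fold higher (2.16 percent of all genes were), 0 lower and a median of 0.58. Nfkbie, which encodes IkB epsilon, read 188 on the control array and 1186 on the TNF array and 3129 on the TNF array at 2 h. It was 6.0-fold higher at 6 h (2.60; its other probe set 2.02), 3.84 at 2 h and 1.68, 2.27, 2.85 and 2.04 at 24 h (limma, adjusted p = 0.0349). Tnfaip3, the ubiquitin editor A20, read 720.3 on the control array and 2903 on the TNF array, which is 4.0-fold (2.0), and was 2.75 at 2 h. Its 4 pairs at 24 h gave 0.52, 1.47, 1.37 and 1.43 (limma, adjusted p = 0.077, and 0.000352 with the block). Bcl3, an atypical IkB, read 55.3 on the control array and 195 on the TNF array (1.65), Tnip1, a partner of A20, 1439 on the control array and 3216 on the TNF array (1.15), and Nfkbib, IkB beta, 355 on the control array and 733 on the TNF array (1.02). With the control at 2 h, which read 593, Nfkbib was not past 2-fold. Nfkbia, IkB alpha and the classical feedback gene, was short of 2-fold on its chosen probe set and past it on the other 4, and its differences at 24 h were 0.69, 1.18, 1.03 and 1.18 (limma, adjusted p = 0.00152). Nfkbiz (0.36, from 1.06 at 2 h), Zc3h12a (0.45), N4bp1 (0.17), Otud7b (0.03), Tnip2 (-0.06) and Tax1bp1 (-0.29) were within 2-fold.

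Because these genes are textbook targets of NF-kB, the bases before their starts were searched for the letters GGGNNTTCC, a short form of kB sites, on both strands (GGAANNCCC on the other). The window was the 250 bases before the first listed RefSeq start (GRCm38.p6), and the letters were chosen with the results known, after other forms had been looked at. They occurred in 4.88 percent of 27025 windows, in 6.27 percent of the 9422 genes above the median with a window, in 14 of 187 higher genes (7.49 percent) and in 3.92 percent of 51 lower genes, so the share among the higher genes lies near that of all genes above the median. Stretches with a match follow 5′ to 3′ along the strand of the gene, from RefSeq, with the matching letters in capitals, to show how near the start they lie in 4 genes past 2-fold at both 2 h and 6 h. They are chr17:45555575-45555623 on the plus strand for Nfkbie, chr10:19015411-19015442 on the minus strand for Tnfaip3, chr19:46304678-46304736 on the plus strand for Nfkb2 and chr3:83841751-83841800 on the minus strand for Tlr2.
Nfkbie: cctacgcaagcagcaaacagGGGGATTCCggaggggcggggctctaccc
Tnfaip3: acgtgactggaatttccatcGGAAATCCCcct
Nfkb2: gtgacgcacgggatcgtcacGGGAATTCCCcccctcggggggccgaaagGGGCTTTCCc
Tlr2: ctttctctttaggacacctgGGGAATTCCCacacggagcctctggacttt
The first matching base lies at position -105 from the start in Nfkbie and -12 in Tnfaip3. In Tlr2 overlapping matches on the 2 strands begin at -172 and -171, and Nfkb2 has such a pair at -39 and -38 and another match at -10. A match is a description of the letters and not a measured site. Birc3, Icam1 and Nfkbia have no match to these letters in this window.

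The 3 largest differences of the pair were those of CC chemokines. Of 18 listed CC chemokines 16 were measured and 11 passed, with 5 higher (2.16 percent of all genes were), 0 lower and a median of 0.43. Of 16 CXC and CX3C chemokines 12 passed, with 5 higher, 1 lower (0.55 percent of all genes were) and a median of 0.66. The CC median was 0.14 over all 16 measured, since 5 of them were below the filter. Likewise the CXC and CX3C median was 0.24 over all 16 measured, with Cxcl3, Cxcl9, Cxcl11 and Ppbp below the filter. Ccl7, an attractant of monocytes, read 65.7 on the control array and 2224 on the TNF array and was 29.4-fold higher (4.88). Ccl2, which draws monocytes through CCR2, read 689.5 on the control array and 10373 on the TNF array, 14.8-fold (3.89), and at most 689.5 on any control array. Both had differences of this size at 2 h (4.64 and 4.05) and were higher in every pair at 24 h, with 3.20, 5.25, 4.57 and 4.49 for Ccl7 (limma, adjusted p = 0.000739) and 2.68, 4.06, 4.59 and 4.66 for Ccl2 (limma, adjusted p = 0.00284). Ccl5, an attractant of T cells, read 32.2 on the control array and 698 on the TNF array, 16.7-fold (4.06). It was smaller at 2 h (2.53) and 2.74, 5.98, 6.25 and 5.66 at 24 h (limma, adjusted p = 0.0001), so 3 of 4 later pairs were above the value at 6 h. Ccl9 read 702 on the control array and 1719.7 on the TNF array (1.28; other probe set 1.66), and Ccl25 disagreed between probe sets as above. Ccl20, the ligand of CCR6, read 7.9 and 465 at 2 h and 9.4 and 83.3 at 6 h. Its difference was 4.71 at 2 h and 2.25 at 6 h, where it is below the filter and so not among the 252.

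Cxcl10, the ligand of CXCR3 on T cells, read 98.6 on the control array and 1221 on the TNF array, 11.3-fold higher (3.50), and 2.65 at 2 h. The 4 pairs at 24 h gave 1.16, 3.06, 2.65 and 0.99 (limma, adjusted p = 0.086, and 0.0095 with the block). Cxcl2, an attractant of neutrophils, read 36.7 on the control array and 230.3 on the TNF array (2.36) and was 3.16 at 2 h and 0.18, 0.40, 0.50 and 0.78 at 24 h. Its difference was thus smaller at each later time. Cx3cl1, fractalkine, a chemokine tethered to the cell surface, read 959.8 on the control array and 3406 on the TNF array (1.82; other probe sets 1.49 and 3.34), and Cxcl16, a second tethered one, 702 on the control array and 1730.3 on the TNF array (1.29; other probe set 1.19). Cxcl17 lay at the threshold (1.00). Cxcl14, the 1 lower chemokine, read 228 on the control array and 104 on the TNF array (-1.06), but the control at 2 h read 121. The window before Cxcl10 (chr5:92348964-92349122 on the minus strand, RefSeq, GRCm38.p6) holds the kB letters at -103 and the ISRE letters described below at -213, both in capitals.
Cxcl10: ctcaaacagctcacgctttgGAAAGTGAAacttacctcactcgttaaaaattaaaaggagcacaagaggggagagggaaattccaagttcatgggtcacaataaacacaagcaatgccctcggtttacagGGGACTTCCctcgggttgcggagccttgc

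Of 31 listed cytokines and growth factors 22 passed, with 3 higher (2.16 percent of all genes were), 0 lower and a median of 0.23, and Il1a, Il1b, Csf2 and Csf3 were among those below the filter. Tslp, an epithelial and stromal cytokine that acts on dendritic cells, read 109.6 on the control array and 564 on the TNF array, 4.8-fold higher (2.26), after 2.48 at 2 h. Its 4 pairs at 24 h gave 0.32, 0.34, 0.44 and -0.93, all short of 2-fold. Il6, an inducer of the acute phase, read 248 on the control array and 587 on the TNF array (1.21) and was 0.12, 1.56, 1.64 and 0.97 at 24 h (limma, adjusted p = 0.57, and 0.00409 with the block). Il1rn, the antagonist of the IL-1 receptor, read 224 on the control array and 666 on the TNF array (1.53; other probe sets 1.13 and 1.75). Among 13 passing genes of the TNF superfamily outside the complex 2 were higher, with a median of 0.23. Tnfrsf9, the costimulatory receptor 4-1BB, read 78.8 on the control array and 281 on the TNF array (1.71) and was 1.85, 2.18, 2.52 and 3.05 at 24 h (limma, adjusted p = 0.000739). Tnfsf4, OX40 ligand, read 35.5 on the control array and 130.3 on the TNF array (1.62), but control arrays reached 174, and its difference at 2 h was -0.17.

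Of 20 listed adhesion molecules 19 passed, with 3 higher (2.16 percent of all genes were), 0 lower and a median of 0.18. These 3 genes encode known anchors of leukocytes on activated endothelium. Icam1, the ligand of leukocyte integrins, read 3749 on the control array and 11418 on the TNF array, 3.0-fold (1.60). At 24 h it was 0.26, 1.44, 2.47 and 2.31 (limma, adjusted p = 0.99, and 0.00232 with the block), and control arrays ranged from 269 to 3916. Vcam1, the ligand of the integrin VLA-4, read 6774 on the control array and 15111 on the TNF array (1.16) and was 0.85, 1.82, 1.97 and 2.17 at 24 h (limma, adjusted p = 0.0886, and 1.79e-05 with the block). Sele, E-selectin, a gene known from endothelium, read 792 on the control array and 2790.0 on the TNF array, 3.5-fold (1.80), after 799 and 9763 at 2 h (3.59). On the 12 arrays numbered 1 to 3 it read 26.2 to 202.7, so its level is high where the endothelial markers are high, and their part in its difference was not tested. At 24 h Sele was 0.16, 0.33, -0.92 and 0.58 (limma, adjusted p = 1, and 0.955 with the block).

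The list of interferon-stimulated genes held the most genes past 2-fold. Of 39 listed 36 were measured and 31 passed. Of these 17 were higher (2.16 percent of all genes were) and 0 lower, and the median was 1.06, against 0.00 over all genes. On the TNF array 24 of the 31 read above all 6 controls (14.7 percent of all genes). At 2 h 4 of them were past 2-fold, and the median was 0.42. Cmpk2, a mitochondrial nucleotide kinase, read 35.5 on the control array and 280.2 on the TNF array, 6.3-fold (2.67), and 0.97 at 2 h. Ifit1, which binds foreign RNA, read 276 on the control array and 1626 on the TNF array, 5.7-fold (2.52), and 0.52 at 2 h. Rsad2, viperin, read 40.3 on the control array and 278 on the TNF array (2.51; other probe sets 0.82 and 1.28), and Oasl2, of the oligoadenylate synthetase family, 105 on the control array and 529 on the TNF array (2.22). The differences of all 4 were larger at 6 h than at 2 h, where Rsad2 was 0.53 and Oasl2 0.89. At 24 h Ifit1 was 0.51, 2.26, 3.48 and 0.74 (limma, adjusted p = 0.876, and 0.0234 with the block), Oasl2 1.65, 2.90, 3.79 and 1.87 (limma, adjusted p = 0.0274), Cmpk2 0.35, 1.07, 1.75 and -0.35 and Rsad2 -0.72, 1.08, 0.38 and 0.26. Of these 4 genes Oasl2 was past 2-fold in every pair, and the pairs numbered 0 and 3 were the lower ones for Ifit1, Oasl2 and Cmpk2. Over the list limma called 3 of 31 higher at 24 h (0.338 percent of all genes tested were) and 22 with the block (3.07 percent). Control arrays varied in these genes as well: Ifit1 read 229.5 to 1336 on the 6 of them, against 1626 on the TNF array at 6 h.

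The interferon-inducible GTPases, which attack vacuoles of intracellular microbes, had the highest median of all lists. Of 13 listed 9 were measured, all 9 passed, 8 were past 2-fold higher (2.16 percent of all genes were), 0 lower and the median was 1.69. Gbp6 read 35.5 on the control array and 658 on the TNF array, 14.6-fold (3.87), and Gbp2 483 on the control array and 4549 on the TNF array, 9.2-fold (3.21). At 2 h Gbp6 was 4.37 and Gbp2 2.48, and 7 of the 9 were past 2-fold, with a median of 1.41. Iigp1 read 589 on the control array and 1937 on the TNF array (1.70; other probe set 2.01) and Gbp3 454 on the control array and 1490.5 on the TNF array (1.69). At 24 h the 4 pairs gave 2.07, 3.91, 4.71 and 3.69 for Gbp6 (limma, adjusted p = 0.0177) and 1.01, 3.59, 3.16 and 2.55 for Gbp2 (limma, adjusted p = 0.00363). There limma called 4 of the 9 higher (0.338 percent of all genes tested were), or 9 with the block (3.07 percent). The family has close copies in the mouse, so a probe set may read more than 1 of them.

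Of 30 listed IRF, STAT and SOCS genes 24 passed and 0 were past 2-fold either way at 6 h, against 2 higher at 2 h, with a median of 0.21 at 6 h. Other regulators stand in the interferon-stimulated list and were past 2-fold: Irf7 at 1.06, Stat2 at 1.01 and Usp18, which blocks the interferon receptor, at 1.53. Irf1, a transcription factor of the early interferon response, had the largest difference of the 24. It read 747 on the control array and 1429 on the TNF array (0.93), after 782 and 2065 at 2 h (1.39), and 0.34, 0.54, 0.83 and 0.68 at 24 h (limma, adjusted p = 0.00226). Ifnb1, the interferon beta gene, did not pass the filter. The letters GAAANNGAA (TTCNNTTTC on the other strand), a short form of ISRE, were also chosen with the results known. They occurred in 7.16 percent of the 27025 windows, in 5.85 percent of the 9422 genes above the median, in 26 of 187 higher genes (13.9 percent) and in 3.92 percent of the 51 lower genes. They lie at -58 in Gbp2 (chr3:142620585-142620633 on the plus strand), at -119 in Rsad2 (chr12:26456543-26456591 on the minus strand) and, with the first 2 overlapping, at -109, -103 and -84 in Ifit1 (chr19:34640760-34640833 on the plus strand). These stretches are shown from RefSeq (GRCm38.p6) with the matches in capitals because each gene is among the 20 highest at 6 h.
Gbp2: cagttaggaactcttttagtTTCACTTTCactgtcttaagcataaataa
Ifit1: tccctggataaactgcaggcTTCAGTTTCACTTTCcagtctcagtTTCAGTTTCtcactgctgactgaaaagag
Rsad2: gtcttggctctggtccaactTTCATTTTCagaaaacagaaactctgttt
Nfkbia and Sele have the ISRE letters too, at -53 and -208, and are not shown. Psmb8, Psmb9, Cmpk2 and Oasl2 have neither set of letters in this window, which says nothing of the factors that act on them.

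Genes of antigen presentation by MHC class I had the next highest median after the interferon-stimulated genes. Of 18 listed genes 14 were measured and 13 passed. All 13 had a difference above 0, 6 were past 2-fold (2.16 percent of all genes were higher) and the median was 0.97. The largest differences were those of the 3 inducible subunits of the immunoproteasome. Psmb9 read 55.8 on the control array and 459.8 on the TNF array (7.1-fold, 2.83), Psmb8 94.5 on the control array and 690.4 on the TNF array (6.7-fold, 2.74) and Psmb10 376 on the control array and 1897 on the TNF array (4.9-fold, 2.30). Their differences at 2 h were 0.89, 1.46 and 1.29, smaller than at 6 h in each. At 24 h they were 0.74, 3.26, 3.09 and 1.95 for Psmb9 (limma, adjusted p = 0.0123), 1.34, 2.38, 3.39 and 2.05 for Psmb8 (limma, adjusted p = 0.00152) and 1.13, 1.89, 2.24 and 0.96 for Psmb10 (limma, adjusted p = 0.00561). Tapbpl, a relative of tapasin that edits peptides, read 225 on the control array and 624 on the TNF array (1.43), and the peptide transporter subunits Tap2 (1.31) and Tap1 (1.01) were past 2-fold. The class I heavy chain H2-K1 read 2903 on the control array and 5698 on the TNF array, 0.97 and thus just short of 2-fold, with 0.92 to 1.96 on 3 other probe sets and 1.17, 2.03, 2.22 and 1.88 at 24 h (limma, adjusted p = 9.66e-06). Class I heavy chains are near-identical, so H2-K1 and its relatives may share probe sets. Limma called 9 of the 13 higher at 24 h (0.338 percent of all genes tested were), and 13 with the block (3.07 percent).

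**Figure D5:**
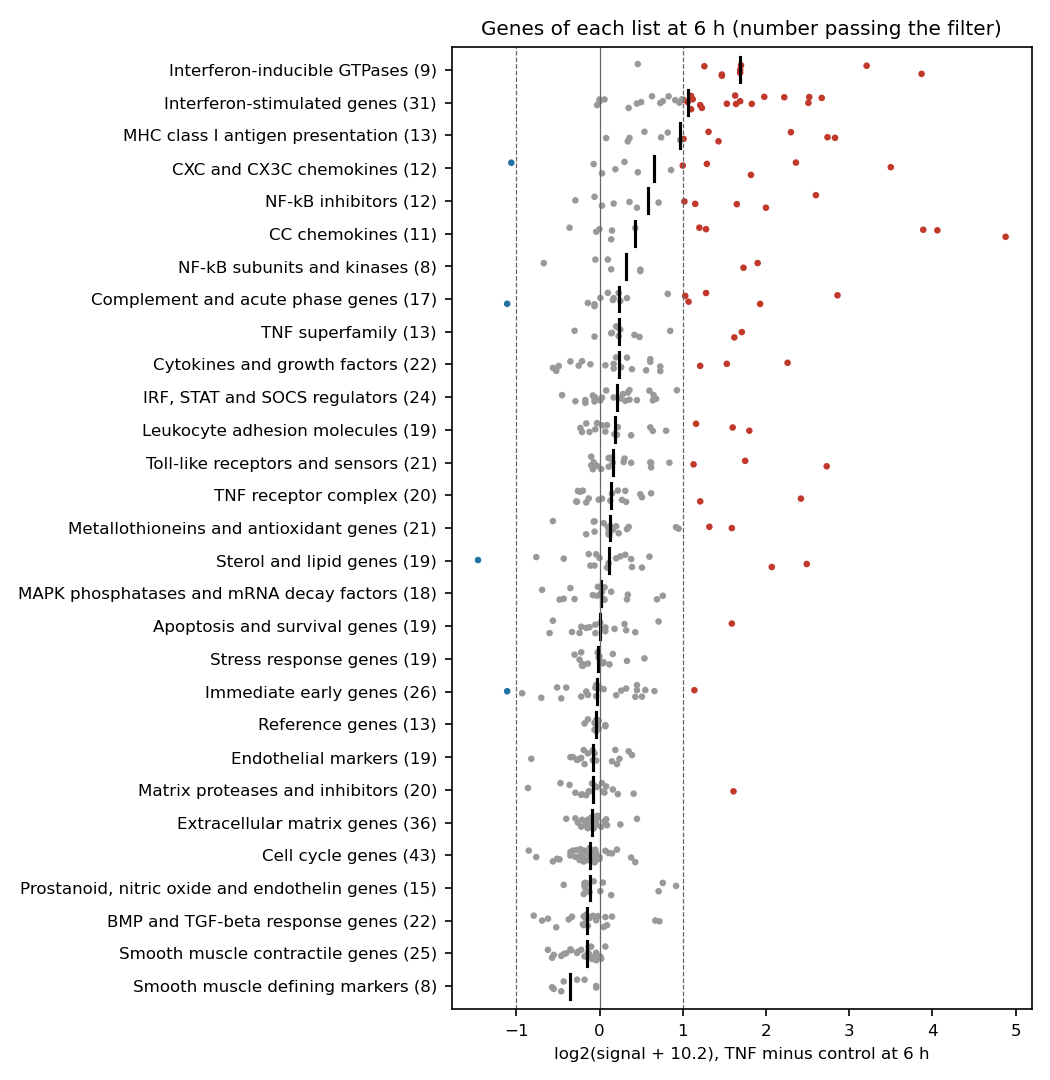
Difference at 6 h (x axis, log2 scale) of each gene above the filter in 29 gene lists, 1 dot a gene, with the list's median as a black bar, the number of genes in brackets and dashed lines at 2-fold. Red dots are at least 2-fold higher and blue dots at least 2-fold lower; the GTPase, interferon and MHC class I lists have the highest medians (1.69, 1.06 and 0.97), and the contractile, cell cycle and matrix lists have no dot past 2-fold.

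Innate sensors and secreted defence proteins were past 2-fold in single genes. Of 21 passing Toll-like receptors and sensors 3 were higher (2.16 percent of all genes were) and 0 lower, with a median of 0.16. Tlr2, the receptor of bacterial lipoproteins, read 446 on the control array and 3016 on the TNF array, 6.6-fold (2.73), after 2.89 at 2 h, and was 0.92, 1.87, 1.84 and 1.60 at 24 h (limma, adjusted p = 0.000739). Casp4, the caspase that senses lipopolysaccharide, read 461 on the control array and 1574 on the TNF array (1.75) and was 1.21, 1.80, 2.31 and 1.73 at 24 h (limma, adjusted p = 7.99e-05), and Casp1 read 238 on the control array and 532 on the TNF array (1.13). Of 17 passing complement and acute phase genes 5 were higher and 1 lower (0.55 percent of all genes were), with a median of 0.23. Hp, haptoglobin, read 71.1 on the control array and 581 on the TNF array, 7.3-fold (2.86), and Lcn2, which withholds iron from bacteria, 292 on the control array and 1140.0 on the TNF array (1.93). They were 1.00 and 1.46 at 2 h, and at 24 h 4.47, 2.77, 3.89 and 3.93 for Hp (limma, adjusted p = 0.00108) and 2.19, 3.17, 3.75 and 2.72 for Lcn2 (limma, adjusted p = 0.0723, and 4.42e-07 with the block), so every pair at 24 h but 1 was above the difference at 6 h for Hp, and every pair for Lcn2. Saa3, an acute phase apolipoprotein, read 77.0 on the control array and 202 on the TNF array (1.28), from 0.04 at 2 h to 1.20, 3.87, 2.54 and 2.65 at 24 h (limma, adjusted p = 0.175, and 0.00508 with the block). Ptx3, a soluble pattern receptor, read 1652 on the control array and 3478 on the TNF array (1.07) with -0.31 on its other probe set. C1qtnf1, the 1 lower gene, read 234 on the control array and 103 on the TNF array (-1.11).

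Single genes of metal binding, survival and lipid handling were past 2-fold. Of all genes 2.16 percent were higher and 0.55 percent lower. Mt2, a metallothionein that binds zinc, read 2759 on the control array and 8327 on the TNF array (1.59) and was 0.74, 2.01, 2.16 and 2.17 at 24 h (limma, adjusted p = 0.0135). Slc7a11, the cystine carrier, read 132 on the control array and 344 on the TNF array (1.32; other probe set 0.54), and these 2 were the only ones of 21 passing metallothionein and antioxidant genes past 2-fold. Sod2, the mitochondrial superoxide dismutase and a known NF-kB target, was 0.95, with 0.79 to 1.28 on its other probe sets. Bid, a pro-apoptotic member of the BCL2 family, read 342 on the control array and 1050.5 on the TNF array. Its difference was 1.59, with 1.23 and 1.66 on its other probe sets. It was the only one of 19 passing apoptosis genes past 2-fold (median 0.01), a count near the 2.16 percent of all genes. Of 19 passing sterol and lipid genes 2 were higher and 1 lower. Olr1, the receptor LOX-1 of oxidised lipoprotein, read 19.6 on the control array and 157 on the TNF array (2.49), and Ch25h, which makes 25-hydroxycholesterol, 50.8 on the control array and 246 on the TNF array (2.07). Both were past 2-fold at 2 h too (3.09 and 1.92). Pparg, the nuclear receptor of fat storage, read 217 on the control array and 72.2 on the TNF array (-1.46), after -0.81 at 2 h, and -0.40, -0.53, -0.45 and -0.81 at 24 h (limma, adjusted p = 1, and 0.188 with the block). It was lower in each of these pairs and past 2-fold in the 6 h pair.

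Of 26 passing immediate early genes 1 was higher and 1 lower at 6 h, counts near the 2.16 and 0.55 percent of all genes, with a median of -0.03, while at 2 h 5 were higher and the median was 0.39. Junb, a subunit of AP-1, read 430.3 on the control array and 963 on the TNF array (1.14) and was 0.61, 1.08, 1.14 and 1.09 at 24 h (limma, adjusted p = 0.0412). Atf3, a stress-induced factor, read 315 on the control array and 141 on the TNF array (-1.11) and Fos 1062 on the control array and 551 on the TNF array (-0.93), the latter short of 2-fold. No gene of the 18 MAPK phosphatases and mRNA decay factors (median 0.02) or of the 19 stress response genes (median -0.02) was past 2-fold. Serpinb2, an inhibitor of plasminogen activators, read 72.3 on the control array and 241 on the TNF array (1.61). It was the only one of 20 passing protease genes past 2-fold, a count near the 2.16 percent of all genes.

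No gene of smooth muscle contraction was past 2-fold, and most differences were below 0. Of 29 listed contractile genes 25 passed, 3 had a difference above 0 and the median was -0.15. On the TNF array 9 of the 25 read below all 6 controls (17.7 percent of all genes). Acta1 read 860.1 on the control array and 555 on the TNF array (-0.62), Lmod1, a nucleator of actin filaments, 738 on the control array and 495 on the TNF array (-0.57), and Acta2 differed by -0.04. At 24 h limma called 0 of the 25 lower, and 12 with the block (2.92 percent of all genes). Lmod1 was -0.28, -0.22, -0.67 and -0.33 there (limma, adjusted p = 1, and 0.0234 with the block). Of 36 passing matrix genes 0 were past 2-fold (median -0.09) and Dcn, decorin, had the largest difference, 0.45. Of 43 passing cell cycle genes 0 were past 2-fold (median -0.12), with Cdc6, which licenses replication origins, the most different at -0.85. Of 22 passing BMP and TGF-beta genes 0 were past 2-fold (median -0.15), with Atoh8 at -0.79. Of 15 passing prostanoid, nitric oxide and endothelin genes 0 were past 2-fold (median -0.12), with Gch1, which makes the cofactor of nitric oxide synthases, at 0.92 (other probe set 1.05) and 0.20, 1.67, 1.55 and 1.56 at 24 h (limma, adjusted p = 1, and 0.00139 with the block). The 13 reference genes lay between -0.18 and 0.07. On the scale of equal medians all of these medians are lower by about 0.13, as is that of all genes.

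Most of the lower genes were dim. Of the 64, 51 read below the array median on the TNF array, and 6 were bright by their mean over all arrays. The higher genes were mostly dim too: 161 of the 252 read below the array median on the control array. Rtel1, a helicase of telomeres, read 814 on the control array and 48.0 on the TNF array (-3.82), but its other probe sets gave 0.19 and 0.37, the controls ranged from 51.5 to 1862, and the pairs at 24 h from -2.92 to 3.23. Tfeb, a factor of lysosome genes, read 421 on the control array and 104 on the TNF array (-1.91), with 344 to 695 on the controls, and was -0.37 at 2 h and 0.30, -0.35, 1.01 and -0.94 at 24 h. The other genes among the 10 lowest were dim: Tbxas1, thromboxane synthase (129 to 8.3), Ptprcap (262 to 26.5), Rnf39 (127 to 11.6), Mfap4, a protein of elastic fibres (123 to 14.3), Atp8b3 (269 to 43.7), A330009N23Rik (283 to 48.8), Zfp688 (143 to 21) and 1700042G07Rik (119.7 to 25.2), each as the control and TNF signal. Of these 8, A330009N23Rik and Rnf39 kept a difference past 2-fold under every alternative setting, as did Tfeb, and the other 6 did not. Differences were read there whether or not a gene passed the filter of the setting. Under the filter at the 75th percentile (505.8 on the control array) A330009N23Rik, Rnf39 and Tfeb all drop out. Slc6a6, the taurine carrier, read 2553 on the control array and 993 on the TNF array (-1.35), below 1716 on the lowest control, and was -0.58, -0.42, -1.41 and -0.39 at 24 h (limma, adjusted p = 1, and 0.0161 with the block). Sost, sclerostin, an inhibitor of WNT signalling, read 790.4 on the control array and 376 on the TNF array (-1.05) and was -0.71, -0.81, -1.41 and -0.75 at 24 h (limma, adjusted p = 1, and 0.0121 with the block).

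The antibody to LTBR at 6 h was set against the same control array, so its differences are not independent of those of TNF and are given side by side only. They are given for the 6 genes past 8-fold with TNF. Ccl7 was 4.88 with TNF and 2.10 with the antibody, Ccl5 4.06 and 1.13, Ccl2 3.89 and 2.12, Gbp6 3.87 and 0.77, Cxcl10 3.50 and 0.43, and Gbp2 3.21 and 0.43. Whether the agents differ was not tested.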

How the data were processed

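RNA of 21 samples was hybridised to Affymetrix arrays, and the deposited values are intensity per probe set on a linear scale, made with GCOS 1.4 per the submitters' processing notes. Their trimmed mean is equal on all arrays. The sources used here do not give the summarisation, background correction or genome build.

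Of 45101 probe sets 64 controls were left out, and 34945 have 1 gene symbol, 932 several and 9160 none. The genes come from the first of these 3 classes (18193). Log2(signal + 10.2) was used, where 10.2 is the 10th percentile of all signals on the 15 arrays at 24 h. At 24 h genes above the array median on at least 3 arrays (12432) were fitted with limma 3.58.1 in R 4.3.3 over all 15 arrays of that time, with group means, a variance trend and Benjamini-Hochberg adjustment at 0.05. Adjusted p-values without further mention come from this fit. The limma fit without the block was tested on simulated data in which the arrays were independent.

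The replicate numbers pair the arrays at 24 h: deviations from the group means correlated at 0.46 to 0.81 (median 0.63) in 21 pairs of the same number and at -0.59 to 0.22 in the other 63, and for 15 of 15 arrays the best correlation was with one of the same number. The pairing comes from the data and the numbers in the labels. The fit with the number as a block was an alternative. The main fit leaves the differences between the numbers in its spread, so few calls without the block do not show that few genes differ.

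The genes named are the 20 highest and 10 lowest at 6 h, up to 4 of each list, all of the 3 lists of TNF and NF-kB signalling, up to 5 with disagreeing probe sets, and up to 5 in each class of time. H2-K1, Sod2, Fos, Tap1, Tap2, Ptx3, Ccl25, Irf7, Stat2, Usp18, Cxcl14, Cxcl17, Slc6a6, Sost, Epb41l4b and Prdm16os, the cell type markers with values, the genes at the thresholds and those of the closing section were named after their values were seen. Members, gene lists and sequence letters were chosen with earlier results of these data known. Promoters are RefSeq windows of GRCm38.p6, and where a gene has several starts the first listed was used. Alternatives were a pseudocount of 50, equal medians, quantile normalization, other filters, the mean over probe sets, other control arrays, no variance trend, fewer groups, leaving out each array at 24 h, and the arrays numbered 1 to 3 alone, which was chosen after seeing the data.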

Additional observations from a re-analysis of the deposited data

Results flagged for a closer look

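In 5 of the 74 named genes with a difference past 2-fold at 6 h (Ccl20 and Ccdc92b, below the filter, included), 1 of the 4 pairs at 24 h lay far from the other 3, by the ratio of its gap to the whole range (critical value 0.829 for 4 values). Chance does so in about 1 in 20 groups. In 4 of the 5 it was the pair numbered 0, the number of both arrays at 6 h. Ccl5 was 2.74 in that pair and 5.66 to 6.25 in the others. Junb was 0.61 there and 1.08 to 1.14 in the others. Mt2 was 0.74 there and 2.01 to 2.17 in the others, and Tnfaip3 was 0.52 there and 1.37 to 1.47 in the others. Tslp was -0.93 in the pair numbered 3 and 0.32 to 0.44 in the others.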

How the results depend on the processing

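At 6 h the counts of 252 genes higher and 64 lower became 146 and 32 with a pseudocount of 50, which shrinks differences of dim genes. They became 908 and 439 with no filter, which adds dim genes (67.4 percent of them higher), and 74 and 8 with the filter at the 75th percentile (90.2 percent). With the control at 24 h numbered 0 in place of that at 6 h, 164 genes were higher. The 65 genes also higher at 2 h became 153 with no filter and 35 with the stricter one. Under the stricter filter other probe sets had the same sign in 13 genes in place of 39, out of 74 higher genes in place of 252. With the control at 2 h Jakmip1 turned to -0.08. With the control at 24 h numbered 0, 1700042G07Rik turned to 0.15, Ccdc92b to -0.38, Sema3f to -0.17 and Tnfsf4 to -0.39, and the cause was not tested. Of 74 named genes with a difference past 2-fold, 46 stayed so, the same way, under every setting at 6 h, where Ccl20 (among the 46) and Ccdc92b are counted although they lie below the filter. Settings that change only the filter leave a gene's difference as it is, so they could not alter this count. A gene that a stricter filter drops is still counted. The medians of the MAPK phosphatase, apoptosis, metallothionein and sterol lists turn negative with equal medians.

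At 24 h the replicate block gave 382 genes called higher and 363 lower, 75 of the genes higher at 6 h and 4 of those lower. With only the TNF and control arrays, which leaves fewer arrays to estimate the spread, 15 genes were called higher, among them 10 of the 252. With the numbers 1 to 3 alone, chosen after seeing the data, 2 genes were called lower. Leaving out 1 array at a time gave 21 to 50 genes called higher and 0 to 1 lower, with 13 to 27 of the 252 called higher and 0 of the 64 lower. The 1 lower gene was called without the control array numbered 0 or 2 or the TNF array numbered 3.

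With 1 array a group at 6 h no error can be given, and genes near the array median rest on signals near background. The number of arrays limits the precision at 24 h.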

Other observations

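Some of the 252 genes that belong to none of the groups described were also above the array median at every time, and are given here after their values were seen. Tnfaip2, a TNF-induced gene known from endothelium, read 588 on the control array and 1805 on the TNF array at 6 h (1.60; other probe set 1.08), was 3.30 at 2 h and 0.99, 1.88, 2.47 and 1.58 in the 4 pairs at 24 h (limma, adjusted p = 0.619, and 6.05e-05 with the block). Stx11, a syntaxin of granule release, read 427 on the control array and 1306 on the TNF array (1.59; other probe set 1.44) and was 2.43 at 2 h. Gsdmd, gasdermin D, the pore protein cut by inflammatory caspases, read 201 on the control array and 434 on the TNF array (1.08) and was 1.06 at 2 h.

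Another set was within 2-fold at 2 h and past it in most pairs at 24 h. Clca3a2 read 676 on the control array and 1636 on the TNF array at 6 h (1.26; other probe set 1.52), was 0.28 at 2 h and 2.09, 1.75, 2.67 and 2.52 at 24 h (limma, adjusted p = 0.523, and 4.78e-07 with the block). Il18bp, the binding protein that neutralises IL-18, read 95.7 on the control array and 226 on the TNF array (1.16), was -0.40 at 2 h and 1.28, 1.92, 1.91 and 2.49 at 24 h (limma, adjusted p = 0.00652). Lbp, which hands lipopolysaccharide to its receptor, read 81.7 on the control array and 239 on the TNF array (1.44), was -0.14 at 2 h and 1.42, 2.08, 1.70 and 1.19 at 24 h (limma, adjusted p = 0.131, and 6.49e-05 with the block). Cd74, the invariant chain of MHC class II, read 93.4 on the control array and 239.7 on the TNF array (1.27), was 0.83 at 2 h and 1.43, 1.18, 1.10 and 0.50 at 24 h (limma, adjusted p = 0.0294). For Clca3a2 the highest control array (1872) was above the TNF array at 6 h.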
